A study of Mus musculus with 6 samples.

Results

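The genes described here are 9 of the 31053 genes in the count table and encode chains of the T cell receptor complex. They are the constant genes of the alpha chain (*Trac*), the beta chain (*Trbc1* and *Trbc2*), the delta chain (*Trdc*) and the gamma chain (*Tcrg-C1*, *Tcrg-C2* and *Tcrg-C4*), with *Cd3g* and *Cd247*, which encode the CD3 gamma and zeta chains. All 9 were found by symbol and were followed over the 7 cell type labels of T cells, NKT cells, innate lymphoid cells (ILC) and NK cells.

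An alpha-beta T cell carries an alpha and a beta chain, and a gamma-delta T cell carries a gamma and a delta chain. Each receptor chain joins a rearranged variable part to a constant part, and the pair reaches the cell surface only with the CD3 chains, which carry the signal inward. NK cells and other innate lymphocytes do not assemble this receptor, although the zeta chain also serves NK receptors such as CD16 and NKp46, and unrearranged receptor loci can be transcribed in lymphocytes.

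The cells came from tumors of CT26, a colon carcinoma line of Balb/c mice, grown under the skin of wild-type females that were 5 to 6 weeks old when obtained. Tumors were taken 5 days after treatment, and leukocytes were enriched with CD45 beads before 3′ single-cell mRNA-seq. The sample labels describe 6 tumors, 2 each of vehicle, low dose and high dose of a bispecific antibody that binds PD-1 and carries GITR ligand. The high dose was 30 mg/kg, and for the low dose the treatment label gives 30 mg/kg where the protocol text gives 10 mg/kg. The study's text gives another dose and an isotype control for this experiment, so doses and control are stated here as labelled only. The table holds 33961 cells in 4 libraries named M1, M2, M5 and M6, and no label ties these names to a treatment, so no treatment groups were compared. Since the condition of each library is unknown, libraries were not treated as replicates, and values are shown library by library or as the lowest and highest.

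The libraries held 7160 to 10294 cells, with a median of 11399 to 21800 unique molecular identifiers (UMIs) per cell. Between 9 and 29 cell barcodes were shared by any pair of libraries, 111 barcodes occurred in 2 or more, and none occurred in all 4. The authors assigned the cell type labels by correlation with reference expression profiles, a step that may have used the genes described here. For this reason differences between labels are descriptions without a test. A level is the sum of a gene's UMIs over the cells of a label, per 1000000 UMIs of those cells (CPM), with an exact 95% Poisson interval that covers counting error only.

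The labels were checked against markers. *Cd8a* stood at 597 CPM in T cell EFF (3633 cells, named for effector cells) and 424 CPM in T cell MEM (1179 cells, memory). *Ncr1*, which encodes the NK receptor NKp46, stood at 450 CPM in NK cells (4398 cells) and 422 CPM in ILC (4628 cells), so the ILC label also held cells with NK transcripts. In the NKT label (781 cells), of the genes known from invariant NKT cells, the alpha segment *Trav11* had 3 UMIs and the factor *Zbtb16* stood at 33.4 CPM. The same label held *Foxp3*, the regulatory T cell factor, at 196 CPM and *Cd4* at 145 CPM, and it is called here by its label only. The smaller labels T cells (203 cells) and T cell Naive (55 cells) complete the set.

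How well reads can tell some of these genes apart depends on how alike the transcripts are, so the bases that separate the near copies are shown first. On mm10, *Trbc1* lies at chr6:41538218-41539881 and *Trbc2* at chr6:41546730-41548352, both on the plus strand. In the GENCODE M21 transcripts their coding parts were 95.6% identical (498 of 521 bases). Exon 1, of 375 bases, differed at 1 position, C260A, given as the *Trbc1* base, the position from the first base of the exon and the *Trbc2* base. The other 22 differing bases lay in the 146 coding bases after exon 1, which encode the end of the constant part and the membrane anchor and are printed 5′ to 3′ with the differing bases in capitals:
Trbc1: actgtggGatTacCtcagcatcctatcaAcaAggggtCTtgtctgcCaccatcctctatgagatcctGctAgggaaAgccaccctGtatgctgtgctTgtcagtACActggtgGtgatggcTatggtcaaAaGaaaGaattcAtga
Trbc2: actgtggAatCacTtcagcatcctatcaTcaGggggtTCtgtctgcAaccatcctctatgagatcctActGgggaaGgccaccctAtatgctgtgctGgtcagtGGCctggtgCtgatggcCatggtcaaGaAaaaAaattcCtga
The 3′ untranslated parts, of 216 bases in *Trbc1* and 171 bases in *Trbc2*, were 44.5% identical. The positions of the reads were not analysed here, so how many beta reads fell where the copies are alike was not tested.

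The gamma constant genes lie together on chromosome 13, *Tcrg-C1* at chr13:19214103-19217024 (plus strand), *Tcrg-C2* at chr13:19304649-19307551 (minus strand) and *Tcrg-C4* at chr13:19344558-19352756 (plus strand). *Tcrg-C1* and *Tcrg-C2* were 94.6% identical in their coding parts and 93.2% identical in their 3′ untranslated parts, with an identical run of 104 bases in the latter. Reads of one can therefore be lost or counted for the other, and the split between *Tcrg-C1* and *Tcrg-C2* is uncertain. *Tcrg-C4* was 70.1% and 67.7% identical to them in the coding part and 52.4% and 53.0% in the 3′ untranslated part. The exons between the first and the last show how the 3 genes differ in length, with 1 such exon in *Tcrg-C1* (45 bases) and *Tcrg-C2* (30 bases) and 2 in *Tcrg-C4* (99 bases):
Tcrg-C1: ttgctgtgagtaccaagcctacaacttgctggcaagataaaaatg
Tcrg-C2: ttgctacaacttgctggcaagataaaaatg
Tcrg-C4: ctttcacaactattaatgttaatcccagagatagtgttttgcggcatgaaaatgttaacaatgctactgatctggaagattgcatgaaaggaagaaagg
*Trac* (chr14:54220521-54224206) and *Trdc* (chr14:54142851-54148868) share a locus on the plus strand but little sequence, with 47.0% identity in the coding part. *Cd3g* lies at chr9:44969572-44980431 on the minus strand and *Cd247* at chr1:165788681-165877277 on the plus strand.

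*Trac* separated the T cell labels from the innate ones. Its level in T cell EFF was 498, 675, 524 and 491 CPM in M1, M2, M5 and M6, and pooled it was 542 CPM (interval 536 to 548). In NK cells the 4 libraries gave 19.9, 12.1, 16.2 and 10.3 CPM, and pooled 14.4 CPM. No library of NK cells came near any library of T cell EFF. The pooled ratio was 37.5-fold, with library values of 4.58 to 5.69 on the log2 scale, here always log2 of CPM plus a pseudocount of 1. ILC lay between them at 70.9 to 80.1 CPM and pooled 76.8 CPM (interval 74.7 to 78.9), or 50.7 CPM when only cells under 10000 UMIs were kept. Myeloid cells, which should lack *Trac*, were at 68.4 CPM (52.4 to 78.9), which overlaps the ILC libraries, so no expression is read from the ILC level alone. From the top the order was T cell EFF, T cell MEM (484 CPM), NKT (465 CPM), T cells (381 CPM), T cell Naive (363 CPM), ILC and NK cells. The library ranges of neighbours overlapped throughout the 5 labels of T and NKT cells, whereas ILC overlapped neither T cell Naive nor NK cells.

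The 2 beta constant genes did not share this pattern. *Trbc2* stood at 1862 CPM in T cell EFF (1567 to 2075 over the libraries), 485 CPM in ILC (394 to 528) and 272 CPM in NK cells (235 to 303). Its ratio of T cell EFF to NK cells was 6.84-fold, and its library ranges did not overlap between T cell EFF, ILC and NK cells. Myeloid cells were at 289 CPM (174 to 359), which spans the NK range, so no expression is read from the NK level of *Trbc2* alone. *Trbc1*, by contrast, was at 827 CPM in NK cells (795 to 847) and 761 CPM in ILC (745 to 773), against 799 CPM in T cell EFF. In T cell EFF the libraries gave 1004, 357, 999 and 695 CPM in M1, M2, M5 and M6, so NK cells and ILC were above M2 and M6 and below M1 and M5. The log2 ratio of T cell EFF to NK cells was -0.05 pooled and ran from -1.16 to 0.28. The library ranges of neighbouring labels overlapped along the whole order of *Trbc1* levels, from T cells (1032 CPM) down to ILC.

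*Trdc* ran the other way from *Trac*. It stood at 322, 290, 272 and 308 CPM in NK cells of M1, M2, M5 and M6, and pooled at 296 CPM (interval 290 to 301). In ILC the same libraries gave 203, 230, 139 and 181 CPM, all below every NK library. NKT followed at 88.2 CPM (72.7 to 135) and T cell MEM at 48.6 CPM (30.7 to 67.7), without overlap between NK cells, ILC, NKT and T cell MEM. T cell EFF was lowest at 13.4 CPM (8.44 to 16.6), 22.1-fold below NK cells. T cell Naive (36.8 CPM) and T cells (18.8 CPM) overlapped their neighbours. Myeloid cells were at 32.2 CPM (25.6 to 44.3), which overlaps T cell MEM and lies above every library of T cell EFF. No expression of *Trdc* is therefore read from the T cell MEM and T cell EFF levels alone.

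The gamma constants did not follow *Trdc* into NK cells. *Tcrg-C4* was at 20.7 CPM in NKT (8.42 to 41.8) and 17.1 CPM in ILC (14.3 to 22.3), but at 1.97 CPM in NK cells (1.51 to 2.55) and 0.475 CPM in T cell EFF, where it had 25 UMIs in all and none in M6, which allows up to 0.254 CPM there. *Tcrg-C1* was at 18.3 CPM in NKT and 6.28 CPM in ILC (3.07 to 8.60), against 0.303 CPM in NK cells, from 12 UMIs. *Tcrg-C2* was at 23.1 CPM in T cell EFF, with 36.4, 33.8, 16.4 and 9.57 CPM in M1, M2, M5 and M6, at 19.2 CPM in NKT (9.71 to 43.3) and at 0.733 CPM in NK cells, from 29 UMIs. Its library ranges overlapped between T cell EFF and NKT. The NK level of every gamma constant was below its ILC level in each library. Myeloid cells were at 0.974, 2.9 and 2.21 CPM for *Tcrg-C1*, *Tcrg-C2* and *Tcrg-C4*, each above the pooled NK level. No expression is therefore read from the NK levels of these genes. *Tcrg-C3*, a further gamma constant, had no UMI in any of the 12 labels.

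The CD3 chains differed from each other. *Cd3g* was at 1614 CPM in T cell EFF (1433 to 1843), 1600 CPM in T cell MEM and 1476 CPM in NKT, against 315 CPM in ILC (292 to 341) and 96.6 CPM in NK cells (83.7 to 108). T cell EFF exceeded NK cells 16.7-fold, with library log2 ratios of 3.96 to 4.15. *Cd247* spanned a much smaller range. It was at 97.2 CPM in T cell EFF (78.1 to 113), 59.7 CPM in NK cells (54.3 to 66.2) and 49.4 CPM in ILC (45.7 to 53.3), without overlap between these 3 labels, and the ratio of T cell EFF to NK cells was 1.63-fold. Its highest levels were in T cell Naive (175 CPM), T cells (167 CPM), NKT (136 CPM) and T cell MEM (129 CPM), and T cell EFF lay below T cell MEM in each of the 4 libraries.

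**Figure D1:**
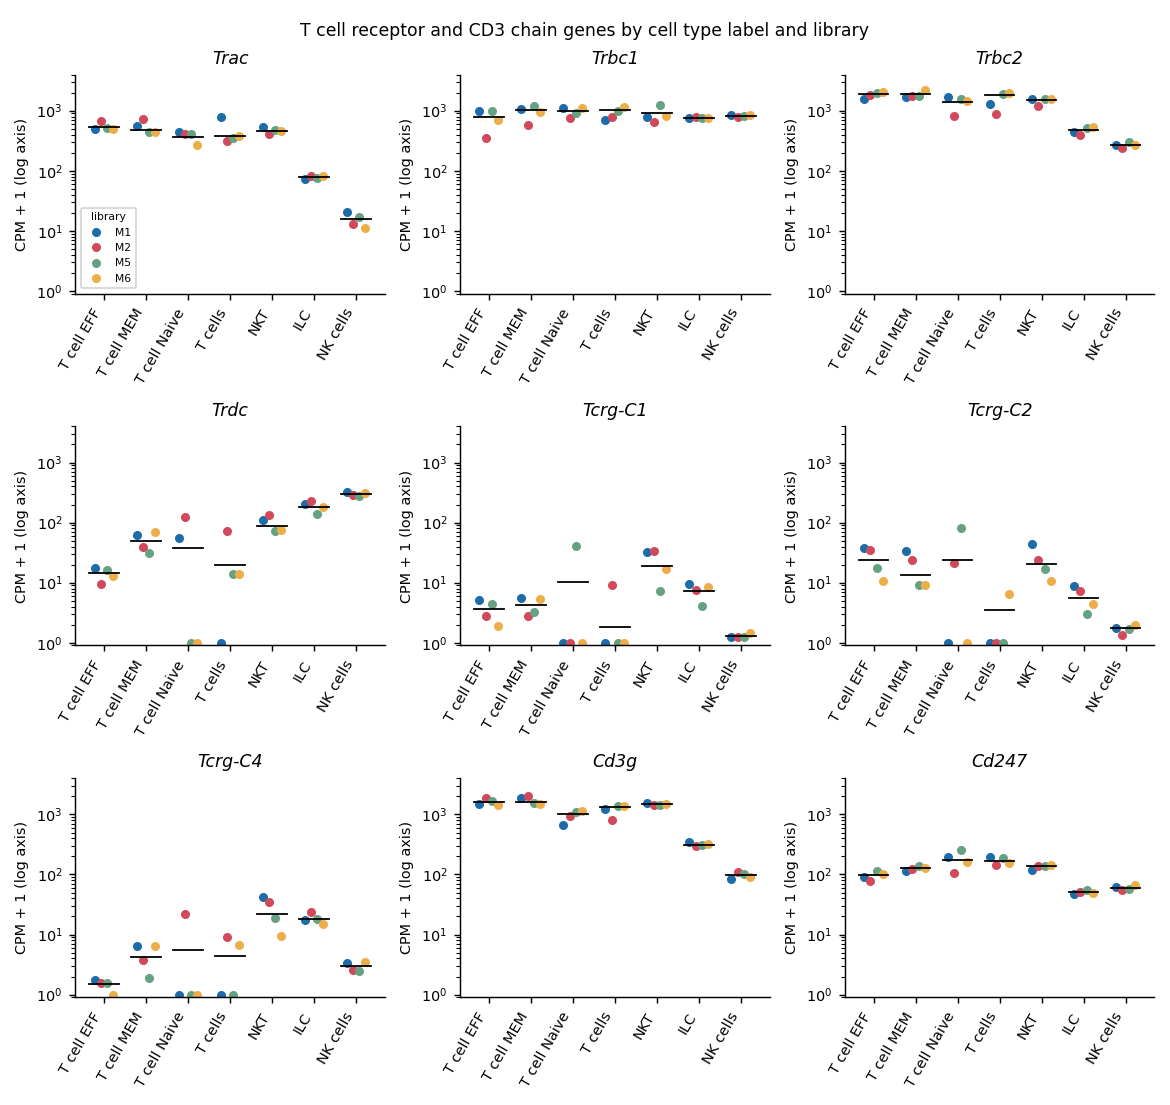
Level of each of the 9 genes, as CPM plus 1 on a log axis, in the 7 cell type labels. Dots are the 4 libraries and bars the pooled value. *Trac* and *Cd3g* are lower in ILC and NK cells than in the T cell labels, *Trdc* is highest in NK cells at 296 CPM, and the pooled values of *Trbc1* span 761 to 1032 CPM, with single libraries from 357 to 1243 CPM.

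Set against all genes, these differences were counted by one rule, a ratio of at least 2-fold in the pooled counts and in each of the 4 libraries. The rule was applied to CPM plus the pseudocount of 1, whereas the folds printed are ratios of CPM without it, so a gene of low CPM can miss the rule at a large fold. Between T cell EFF and NK cells, 2.44% of the 14893 genes with at least 10 UMIs were higher in T cell EFF and 1.78% were lower. Of the 9 members 4 were higher (*Trac*, *Trbc2*, *Tcrg-C2* at 31.5-fold, *Cd3g*) and 1 was lower (*Trdc*). *Tcrg-C1*, 8.84-fold higher in T cell EFF, missed the rule at a lowest library log2 ratio of 0.41, and *Tcrg-C4*, 4.15-fold lower, missed it with -0.68 in the library nearest to 0. The median log2 ratio was 1.5 over the members and 0.08 over all genes. Between ILC and NK cells 1.36% of 15166 genes were higher in ILC and 0.033% lower. Again 4 members were higher, *Trac* at 5.32-fold, *Tcrg-C1* at 20.7-fold, *Tcrg-C4* at 8.68-fold and *Cd3g* at 3.26-fold, and none was lower. *Tcrg-C2*, at 6.12-fold, missed the rule with 0.84 in its lowest library. The members' median was 1.66 against 0.02 for all genes.

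Between T cell MEM and T cell EFF 0.382% of 14402 genes were higher and 2.6% lower in T cell MEM, and no member passed in either direction. The largest member ratios there were 3.64-fold for *Trdc* and 6.87-fold for *Tcrg-C4*, both higher in T cell MEM, and both missed the rule, with 0.98 and 0.30 as their lowest library log2 ratios. Between NKT and T cell EFF 1.57% of 14260 genes were higher and 1.81% lower in NKT, and 2 members were higher, *Trdc* at 6.6-fold and *Tcrg-C4* at 43.5-fold. *Tcrg-C1*, at 6.81-fold, missed the rule with 0.75 in its lowest library. The members' medians were 0.21 and 0.18 in these 2 comparisons, against 0.0 and -0.02 for all genes. Of the 4 comparisons 3 share T cell EFF cells and 2 share NK cells, so they are not independent of each other.

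Beyond the members, 24 other genes were listed, of the receptor pathway and, for 6 of them, of NK receptors. Of the 24, 20 or 21 had enough UMIs to be counted. Between T cell EFF and NK cells 7 were higher. They were the CD3 partners *Cd3d* (30.5-fold) and *Cd3e* (45.1-fold), the coreceptors *Cd8a* (80.8-fold), *Cd8b1* (70-fold) and *Cd4* (18.7-fold), the adaptor *Lat* (8.11-fold) and *Themis* (40.7-fold), which tunes receptor signals. Lower were 5 of the 6 listed genes that serve NK receptors: *Ncr1* (23.5-fold), the adaptors *Tyrobp* (12.9-fold) and *Fcer1g* (4.23-fold), the kinase *Syk* (3.43-fold) and the Fc receptor *Fcgr3* (2.81-fold). The adaptor *Hcst* was at 205 CPM in T cell EFF and 187 CPM in NK cells. The kinases that act next to the receptor differed little, with T cell EFF to NK ratios of 1.25 for *Lck*, 1.11 for *Fyn* and 1.91 for *Zap70*.

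Between ILC and NK cells the list gave 7 higher and none lower. *Cd3d* (5.5-fold), *Cd3e* (7.6-fold), *Cd8a* (9.25-fold), *Cd8b1* (7.86-fold), *Cd4* (9.3-fold), *Themis* (5.58-fold) and *Trat1* (10.8-fold), a receptor-associated adaptor, were the 7. For each of the 7 the library range of ILC overlapped that of Myeloid cells, with pooled levels of 146 and 131 CPM for *Cd3d*, 75.5 and 78.0 CPM for *Cd3e* and 11.6 and 12.6 CPM for *Themis*. *Cd3e*, *Themis* and *Cd4* were lower in ILC than in Myeloid cells when pooled, and the part of free RNA or doublets was not tested. Between T cell MEM and T cell EFF *Cd4* (3.82-fold) and *Trat1* (4.52-fold) were higher. Between NKT and T cell EFF the same 2 genes were higher, at 8.08-fold and 9.14-fold, and *Cd8a* (5.23-fold) and *Cd8b1* (6.6-fold) were lower. The recombinase genes *Rag1* and *Rag2* had no UMI in the 7 labels. The median log2 ratio over the list was 1.04, 0.33, 0.42 and 0.17 in the 4 comparisons in the order given. Over all genes it was 0.08, 0.02, 0.0 and -0.02. The list mixes T cell and NK receptor genes, so its median does not describe the T cell receptor pathway alone.

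The share of cells with a UMI was compared after each cell was thinned to 2000 UMIs. *Trac* was then seen in 68.2% of T cell EFF cells, 59.8% of T cell MEM, 57.1% of NKT, 9.12% of ILC (exact binomial interval 8.29 to 9.99) and 2.04% of NK cells. Myeloid cells gave 6.12%, and cells labelled Stroma gave 0.313%, so the NK share lay below the Myeloid share and above the Stroma share, and no expression is read from it. Median depths were 5397 UMIs in NK cells, 9774 in ILC, 8027 in Myeloid and 40692 in Stroma. *Trbc1* reached 78.6% of NK cells and 75.1% of ILC but 53.3% of T cell EFF cells, with 17.9% in Myeloid. *Trdc* reached 40.9% of NK cells (39.5 to 42.4) and 25.9% of ILC (24.6 to 27.2), against 5.89% of NKT, 1.38% of T cell EFF and 3.38% of Myeloid cells. The T cell EFF share of *Trdc* was thus below the Myeloid share, and the NK share exceeded it in each library. The sizes depend on the thinning: *Trac* was seen in 5.23% of ILC at 1000 UMIs, 14.6% at 4000 and 24.4% without thinning, and *Trdc* in 23.7%, 58.3% and 65.6% of NK cells. *Cd3g* was seen in 92.4% of T cell EFF cells, 25.4% of ILC, 10.4% of NK cells and 16.1% of Myeloid cells. *Cd247* was seen in 19.6%, 9.74%, 14.7% and 3.14% of the same labels, so the NK share lay below the Myeloid share for *Cd3g* and above it for *Cd247*.

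**Figure D2:**
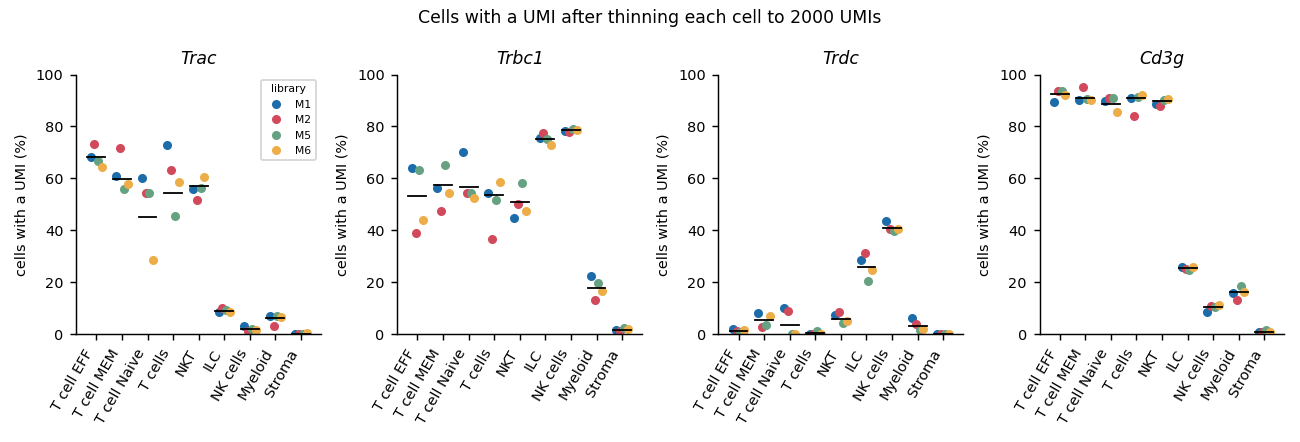
Percentage of cells with a UMI of *Trac*, *Trbc1*, *Trdc* and *Cd3g* after each cell was thinned to 2000 UMIs, for the 7 lymphocyte labels and for Myeloid and Stroma cells. Dots are libraries and bars pooled values; *Trdc* is seen in 40.9% of the NK label and in 1.38% of T cell EFF, and *Trbc1* is seen most often in NK cells and ILC.

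The balance of the 2 beta constant genes was described as the *Trbc1* part, the percentage of *Trbc1* among all *Trbc1* and *Trbc2* UMIs. Pooled, it was 30.0% in T cell EFF, 34.8% in T cell MEM, 37.3% in NKT, 61.1% in ILC and 75.2% in NK cells. Myeloid cells were at 41.7%, and the NK value includes *Trbc2* UMIs at a level that Myeloid cells also had. In NK cells the libraries differed by little, from 73.0% in M5 to 77.2% in M2, and in ILC from 58.5% to 66.2%. In T cell EFF the *Trbc1* part was 39.0%, 16.3%, 33.9% and 25.1% in M1, M2, M5 and M6. M2 was also the lowest in T cell MEM at 24.6%, where the others were 30.5% to 40.1%.

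The *Trbc1* part also varied from cell to cell. Among 1518 NK cells with at least 10 *Trbc* UMIs the *Trbc1* part was over 95% in 34.1% and under 5% in 0.198%. Among 3132 such T cell EFF cells it was over 95% in 0.798% and under 5% in 29.3%. UMIs of both genes were found in 70.5% of all T cell EFF cells, 43.6% of all NK cells and 24.7% of all Myeloid cells. These shares were not thinned, and median depth was 10049 UMIs in T cell EFF and 5397 in NK cells. No difference between the labels is therefore read from them. The libraries differed within T cell EFF: the median cell was at 40.5%, 9.09%, 25.0% and 10.5% in M1, M2, M5 and M6. In M1, 30.1% of these cells lay between 40% and 60%, against 4.49% to 12.7% in the other libraries. The doublet score was over 0.25 in 3.25% of T cell EFF cells, from 7.6% in M1 to 1.25% in M5, and without those cells the pooled part was 29.8%. The part that doublets had in the middle range of M1 was not tested.

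**Figure D3:**
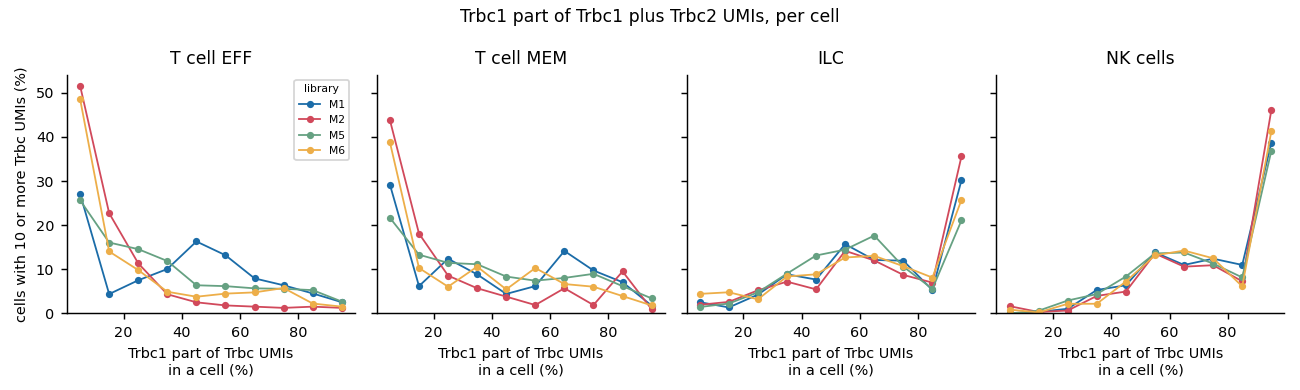
Distribution of the *Trbc1* part over single cells with 10 or more *Trbc* UMIs, in bins of 10 percentage points, as the percentage of such cells in each library. T cell EFF and MEM cells pile up at low *Trbc1* parts, NK cells at high ones, and T cell EFF cells of M1 have a second mass around the middle, where 30.1% of them lie between 40% and 60%.

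The variable and joining segments of the receptor chains were listed under 251 further symbols, without any joining segment of the gamma chain. Of these symbols 101 had a UMI, with 4854 UMIs in all and 4440 of them in the 7 labels. A 3′ library reads a segment only in the rare fragment that reaches it, so a cell without a UMI may still use the segment. The alpha variable segments were seen in 21.9% of T cell EFF cells and 17.6% of T cell MEM cells, against 4.75% of ILC, 1.07% of NK cells and 4.29% of Myeloid cells. These shares were not thinned, and by level T cell MEM was at 31.2 CPM and T cell EFF at 24.0 CPM, so no order between them is read from the shares. The beta variable segments were seen in 15.7% of T cell EFF, 2.46% of Myeloid and 0.341% of NK cells. No *Traj*, *Trbj* or *Trdj* symbol had a UMI in the 7 labels.

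In NK cells and ILC most segment UMIs were of delta variable genes. These were seen in 8.19% of NK cells (5.91% to 8.97% over the libraries) and 12.7% of ILC (11.1% to 13.9%), against 0.606% of T cell EFF cells and 1.34% of Myeloid cells. These shares were not thinned either, and the levels were 10.2 CPM in NK cells and 10.5 CPM in ILC, so no difference between NK cells and ILC is read from the shares. NK cells held 405 such UMIs, 257 of *Trdv4* and 148 of *Trdv2-2*, and none of another *Trdv* symbol. Segments named for both the alpha and the delta locus, such as *Trav14d-3-dv8*, were counted with the alpha segments. ILC held 709, of which 536 were *Trdv4* and 169 *Trdv2-2*. Alpha and beta variable segments gave 53 and 18 UMIs in NK cells, and 287 and 164 in ILC. Gamma variable segments gave 2 UMIs in NK cells, 25 in ILC, 15 in NKT, 19 in T cell EFF and 5 in Myeloid cells.

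In T cell EFF the segments differed between libraries, as shown by the 12 segments with the most UMIs, a choice made after the values were seen. *Trav16n* was seen in 114 T cell EFF cells of M1 (14.2%), in 1 of M2, in 26 of M5 and in 4 of M6. *Trav16d-dv11*, seen in 50 cells of M1 and in 2 to 8 of each other library, followed it. Segment sequences were not compared here, so whether reads of one were counted for the other was not tested. *Trav3-3* was seen in 113 cells of M5 (10.1%), against 13 in M1, 30 in M2 and 29 in M6. *Trbv19* was seen in 61 cells of M2 (6.86%) and in 2 of M1, and *Trbv13-1* in 58 cells of M5 and in 1 of M2. *Trav21-dv12* was seen in 58 cells of M5 and 43 of M6, against 4 of M1 and 6 of M2, and *Trav14d-3-dv8* in none of the 803 T cell EFF cells of M1, which allows up to 0.374% of cells with a UMI, and in 17 to 25 of each other library. *Trbv13-2*, in contrast, was even across the libraries at 0.852% to 1.25% of cells.

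Some segments went with a particular *Trbc1* part within a library. In M1 the 109 *Trav16n* carriers with at least 10 *Trbc* UMIs had a median *Trbc1* part of 53.6%, against 35.1% in the other T cell EFF cells of M1. In M5 the 26 carriers had 57.1% against 24.4%. The 20 *Trbv19* carriers of M5 had 64.7% against 24.4%, while the 60 of M2 had 6.67% against 9.30%. In M6 the 39 *Trav21-dv12* carriers had a median of 0% against 11.4%, and the 56 of M5 had 24.7% against 25.0%. Cells of one library are not replicates, so these are descriptions of each library.

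**Figure D4:**
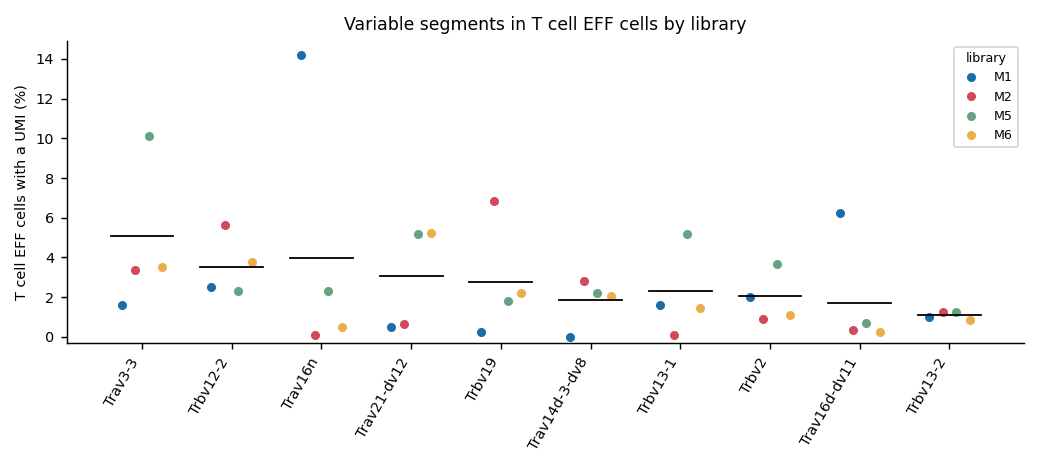
Percentage of T cell EFF cells with at least 1 UMI of a variable segment, for the alpha and beta segments with the most UMIs. Dots are libraries and bars pooled values; *Trav16n* reaches 14.2% in M1 and at most 2.32% elsewhere, and *Trav3-3* reaches 10.1% in M5.

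ILC-labelled cells were then split by their *Trac* UMIs, a split made after the values were seen. Of 4628 cells, 3501 (75.6%) had none, 366 had 1 and 761 (16.4%) had 2 or more. In cells with none, *Cd3g* was at 134, 141, 110 and 132 CPM in M1, M2, M5 and M6, and in cells with 2 or more it was at 747, 819, 638 and 632 CPM. *Trbc2* moved with it, from 287 to 878 CPM pooled, and *Cd247* from 38.6 to 70.7 CPM. *Ncr1* went the other way, from 486 to 558 CPM over the libraries to 212 to 262 CPM, and so did *Trdc*, from 213 to 120 CPM pooled, and *Tcrg-C4*, from 20.2 to 9.79 CPM. *Tcrg-C2* was at 2.22 CPM in cells with none and 9.33 CPM in cells with 2 or more, and higher in the latter in each library, while *Tcrg-C1* was at 6.78 and 4.41 CPM. *Trbc1* was at 785 CPM in the first class and 715 CPM in the second, with overlapping library ranges.

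Depth and transcripts of other cells moved with this split. The median depth was 8196 UMIs in ILC with no *Trac* UMI and 21581 UMIs in those with 2 or more, and a doublet score over 0.25 was found in 2.46% and 6.96% of them. *Lyz2*, the macrophage lysozyme gene, stood at 224 and 1211 CPM, and *Ncr1* was still detected in 79.5% of the cells with 2 or more *Trac* UMIs. Of these cells 91.5% held a *Cd3e* UMI. The same split left 80 NK cells (1.82%) with 2 or more *Trac* UMIs at a median of 23346 UMIs, and 413 Myeloid cells (15.4%) at a median of 27541 UMIs. In these NK cells *Cd3g* was at 428 CPM and *Trbc2* at 555.1 CPM, against 76.2 and 250.5 CPM in those without *Trac*. In the Myeloid cells they were at 502 and 640.5 CPM, against 43.2 and 67.8 CPM. *Cd247* went from 60.9 to 49.6 CPM in NK cells and from 10.3 to 48.9 CPM in Myeloid cells. The rise of *Cd3g* and *Trbc2* with *Trac* was thus not particular to ILC. The part that doublets, free RNA or depth had in the *Trac*-positive cells was not tested.

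**Figure D5:**
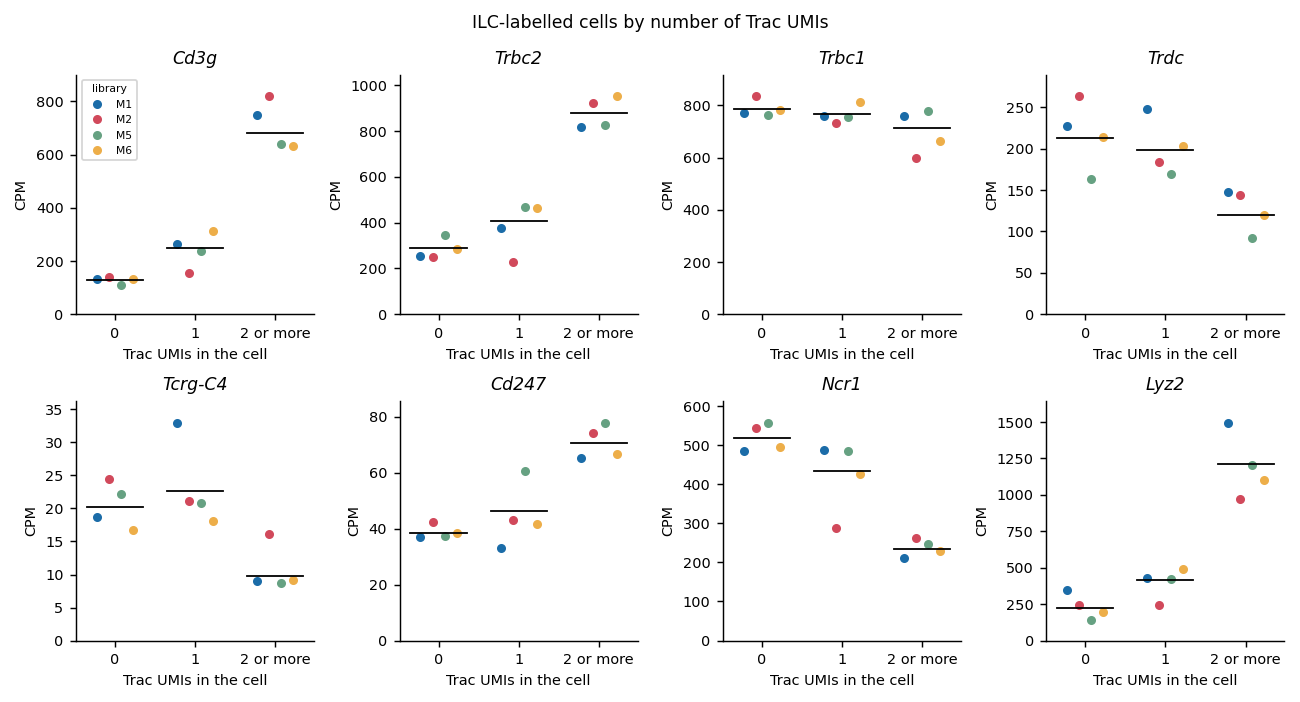
Levels in CPM of 6 receptor genes and of *Ncr1* and *Lyz2* in ILC-labelled cells with 0, 1 or 2 or more *Trac* UMIs. Dots are libraries and bars pooled values; *Cd3g* goes from 128 to 682 CPM across the classes while *Ncr1* goes from 520 to 234 CPM.

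Cells with transcripts of both gamma-delta chains were counted as those with at least 2 *Trdc* UMIs, 2 gamma constant UMIs and 2 UMIs of *Cd3d*, *Cd3e* and *Cd3g* together, a rule chosen after the values were seen. There were 289 in the whole table. ILC held 187 of them, 4.04% of its cells (exact binomial interval 3.49 to 4.65), with 60, 35, 30 and 62 in M1, M2, M5 and M6. NKT held 21 (2.69% of its cells), T cell EFF 18, T cell MEM 17, NK cells 10 (0.227%) and Myeloid 26 (0.970%). Of the 187 in ILC 63 also had 2 or more *Trac* UMIs, and of the 18 in T cell EFF 14 did, while in NKT 2 of 21 did. The 18 cells of T cell EFF had a median of 35352 UMIs, the 21 of NKT 4728 and the 187 of ILC 13330.

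*Cd163l1*, which encodes the scavenger receptor of many gamma-delta T cells, was seen in 78 of the 187 ILC cells and 9 of the 21 NKT cells. In the rest of the ILC label it was seen in 50 cells. In the 124 of the 187 cells with fewer than 2 *Trac* UMIs there were 1584 *Trdc*, 264 *Tcrg-C1*, 161 *Tcrg-C4* and 69 *Tcrg-C2* UMIs, *Tcrg-C1* was seen in 82 cells and *Tcrg-C4* in 79, and *Ncr1* was seen in 68. *Sox13* and *Tcrg-V6*, other genes known from gamma-delta T cells, had measured levels below 1 CPM in the 7 labels. In T cell Naive and T cells, 3 UMIs correspond to 13.8 and 2.57 CPM, so these 2 labels cannot show a level below 1 CPM.

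A *Trdc* transcript alone marked other cells than these. Of 2039 NK cells with 2 or more *Trdc* UMIs, 38 (1.86%) held any gamma constant UMI, and 359 held 2 or more CD3 UMIs. In ILC the gamma share was 18.2% of 1920 such cells, with 15.9% to 22.0% over the libraries. Myeloid cells gave 21.05% of 209 such cells, so the pooled ILC share did not exceed the pooled Myeloid share. In M1 the ILC share was above the Myeloid share, at 22.0% against 14.5% of 62 cells. In M2, M5 and M6 it was below. In NKT the gamma share was 82.9% of 41 cells, in T cell MEM 38.8% of 80 and in T cell EFF 28.8% of 111. None of these shares was thinned. The NK share was below that of every other lymphocyte label with more than 40 such cells.

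The pattern of 3 members over labels and libraries was compared with that of 10448 genes, by Pearson's r of the log2 levels over 38 combinations of a label and a library. These combinations share libraries and the labels were made from the same values, so r is a description. The genes most like *Trac* were *Cd3g* (0.986), *Cd3d* (0.970), *Themis* (0.965), *Tnfrsf4* (0.956) and *Uhrf2* (0.956). Those most like *Trdc* were *Klra7* (0.942), *Rasl11b* (0.930), *Itga2* (0.929), *Klrg1* (0.927) and *Tmem2* (0.924), of which *Klra7*, *Itga2* and *Klrg1* encode surface receptors of NK cells. Among those most like *Cd247* were *Skap1* (0.980), *Il18r1* (0.977), *Cd28* (0.975) and *Ipcef1* (0.974). Among the members, *Trac* went with *Cd3g* (0.99) and *Trbc2* (0.95) and less with *Trbc1* (0.80), and *Trdc* went with *Tcrg-C4* (0.73) and *Trbc1* (0.71) more than with *Trac* (0.33).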

How the data were processed

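Single-cell mRNA-seq (3′ V3 chemistry) of CD45+ bead-enriched tumor cells was used. Per the labels and the study's methods, the authors ran Cell Ranger 3.0.2 on mm10 (GRCm38) and kept cells above 500 UMIs. The deposited values are unnormalized UMI counts, and each cell also has a library name and the label of a cell type. The smallest total in the table was 1220 UMIs. Neither doublet removal nor correction for free RNA is given in the sources used here.

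The members, gene lists and rules were chosen with earlier results of these data known. Genes named are the 9 members, 24 receptor pathway and NK receptor genes, and the receptor segments. The 5 genes most like *Trac*, *Trdc* and *Cd247* were also found, and not all are reported here. Likeness used combinations of at least 20 cells from any label, and genes reaching 10 CPM. Also named are markers of T cells, NK cells, invariant NKT cells, gamma-delta T cells and macrophages. Counts were summed per label and scaled to CPM, log2 ratios and the 2-fold rule used a pseudocount of 1 CPM (printed folds did not), and cells were thinned without replacement to 2000 UMIs, which left out 696 of 33961. Where no UMI was seen, up to 3 were allowed for. Doublets were scored with scrublet in scanpy 1.11.5 at an expected rate of 0.06; 606 cells (1.78%) scored over 0.25 and stayed in. Scripts used Python 3.11.15, numpy 2.4.6, scipy 1.17.1, pandas 2.3.3, Biopython 1.88 and matplotlib 3.10.9, and were tested on simulated data. Medians of the *Trbc1* part are given for at least 15 carriers. Positions and transcripts are from GENCODE M21 (mm10). Alternatives left out a library, high doublet scores or cells over 10% mitochondrial UMIs, or changed the pseudocount, thinning or averaging; the limit of under 10000 UMIs was added after seeing the data.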

Additional observations from a re-analysis of the deposited data

How the results depend on the processing

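No paired analysis was possible because no treatment groups were compared and the library names carry no replicate number of the labels. Ratios between cell type labels were also taken within each library. Of 81 alternative values of 12 results, 41 stayed within counting error or within 1.5 times the count, 40 moved and neither log2 ratio changed sign, and the causes were not tested. Leaving out 1 library at a time gave 507 to 557 CPM for *Trac* in T cell EFF (542 with all), 75.3 to 78.5 CPM for *Trac* in ILC, 289 to 307 CPM for *Trdc* in NK cells, -0.74 to -0.55 for the log2 ratio of *Cd247* in NK cells over T cell EFF (-0.69), 4.03 to 4.06 for that of *Cd3g* in T cell EFF over NK cells, and 27.4% to 32.8% for the *Trbc1* part in T cell EFF.

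Without cells of high doublet score these values were 595 CPM, 79.3 CPM, 307 CPM (306.5), -0.77 and 4.19 for the first 5. With only cells under 10000 UMIs they were 726, 50.7 and 325 CPM, -0.44, 4.77 and, for the *Trbc1* part, 27.9%. The *Trac* share of ILC was then 7.04%. Averaging the CPM of each cell gave 648, 62.9 and 313 CPM for *Trac* in T cell EFF and ILC and *Trdc* in NK cells. Without cells over 10% mitochondrial UMIs, *Trdc* in NK cells was at 303 CPM and in 42.6% of cells. A pseudocount of 10 CPM gave -0.62 for *Cd247* and 3.93 for *Cd3g*. Thinning to 1000 or 4000 UMIs or none gave 5.23%, 14.6% and 24.4% of ILC with *Trac* and 23.7%, 58.3% and 65.6% of NK cells with *Trdc*. Counting genes past 2-fold in pooled counts only gave 1240 genes instead of 628 between T cell EFF and NK cells, 564 instead of 211 between ILC and NK cells, 1132 instead of 430 between T cell MEM and T cell EFF, and 1754 instead of 482 between NKT and T cell EFF. Receptor segments and gamma constants rest on few UMIs per cell, which limits what their absence shows.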
